A study of Mus musculus with 2 samples.

Results

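Integrins are adhesion receptors made of 1 alpha and 1 beta chain, and the chains of 10 integrin genes were followed here in liver leukocytes sorted in part by integrins on their surface. The genes were chosen by symbol: the alpha chains Itga1, Itga2, Itga4, Itgae, Itgal, Itgam and Itgax and the beta chains Itgb1, Itgb2 and Itgb7. They took 11 matrix rows, since Itgam had 2, of the 27998 genes in the matrices. The tissue was liver of adult C57BL/6 mice aged 7 to 10 weeks, described as wild type, with no treatment or engineered allele named in the labels. The CD122+CD49a+ library was sorted for CD45+Lin- cells positive on their surface for CD122 and CD49a. CD122 is a beta chain of the interleukin-2 and interleukin-15 receptors, and CD49a is the alpha 1 integrin chain, encoded by Itga1. The LSM library was sorted for CD45+Lin- cells with Sca-1 and Mac-1, the alpha M beta 2 integrin whose alpha chain is encoded by Itgam. Since each gate was 1 droplet library, differences carry no check against replicates and no p-value. How many mice were pooled for a library is not stated in the labels.

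The beta chain decides the family an integrin belongs to. The beta 1 integrins with alpha 1 or alpha 2 bind collagen, and with alpha 4 bind fibronectin and VCAM-1. The beta 2 integrins are the leukocyte integrins: LFA-1 (alpha L), Mac-1 (alpha M) and CD11c (alpha X), which bind ICAMs, complement fragments and other ligands. The beta 7 chain pairs with alpha 4 to bind MAdCAM-1 in gut vessels, and with alpha E (CD103) to bind E-cadherin. In mouse liver, CD49a on the surface marks resident type 1 innate lymphocytes and some resident T cells, whereas conventional NK cells carry the alpha 2 chain CD49b.

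The matrices held 1655 barcodes and 2632303 unique molecular identifiers (UMIs) for the CD122+CD49a+ gate, and 3133 barcodes and 16226070 UMIs for the LSM gate. Barcodes with at least 500 detected genes were kept, 1257 CD122+CD49a+ barcodes with a median of 1461 UMIs and 3074 LSM barcodes with a median of 5100.5 UMIs. The matrices shared 3 barcodes, 2 of them among those kept. Levels are CPM, the gene's UMIs in a group of barcodes summed and divided by all UMIs of that group (1 CPM is 1 in 1000000), and shares are percentages of barcodes with a UMI, given after each barcode was thinned to 1000 UMIs (1039 CD122+CD49a+ and 3052 LSM barcodes reach that depth) unless said otherwise. Intervals in brackets are exact 95% intervals, and like the limits for a count of 0 they cover counting error only. Counts come from the 3′ end of transcripts and are not scaled by length, so levels are compared between samples or classes for 1 gene and not between genes.

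Itga1 and Itga2 are neighbours on the minus strand of chromosome 13, and Itgam and Itgax are neighbours on the plus strand of chromosome 7. Their promoters are shown because Itga1 and Itgam encode the integrin chains of the 2 gates, and each has a neighbour of its own family to be read beside it. The sequences are RefSeq windows of 250 bases before to 50 after the gene start in build GRCm38.p6, written along the gene's strand. They lie at chr13:115101915-115102214 (minus) for Itga1, chr13:114932051-114932350 (minus) for Itga2, chr7:128062390-128062689 (plus) for Itgam and chr7:128129300-128129599 (plus) for Itgax. Capitals mark matches on either strand to 3 motifs. These are GAGGAA, found in known sites of ETS factors such as PU.1, then TGTGGT, found in known sites of Runx factors, and GGGCGG, the core of known Sp1 sites.
Itga1: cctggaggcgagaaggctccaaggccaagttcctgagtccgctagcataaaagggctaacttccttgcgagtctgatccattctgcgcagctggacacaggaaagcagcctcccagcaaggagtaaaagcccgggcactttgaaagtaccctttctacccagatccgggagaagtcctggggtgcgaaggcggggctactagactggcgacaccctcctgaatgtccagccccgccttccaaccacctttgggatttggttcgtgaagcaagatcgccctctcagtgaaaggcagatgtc
Itga2: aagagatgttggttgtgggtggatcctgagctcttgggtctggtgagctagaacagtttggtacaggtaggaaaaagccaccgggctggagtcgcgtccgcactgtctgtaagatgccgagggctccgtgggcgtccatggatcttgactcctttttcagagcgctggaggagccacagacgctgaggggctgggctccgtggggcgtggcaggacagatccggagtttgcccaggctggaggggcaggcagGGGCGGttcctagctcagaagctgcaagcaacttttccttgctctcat
Itgam: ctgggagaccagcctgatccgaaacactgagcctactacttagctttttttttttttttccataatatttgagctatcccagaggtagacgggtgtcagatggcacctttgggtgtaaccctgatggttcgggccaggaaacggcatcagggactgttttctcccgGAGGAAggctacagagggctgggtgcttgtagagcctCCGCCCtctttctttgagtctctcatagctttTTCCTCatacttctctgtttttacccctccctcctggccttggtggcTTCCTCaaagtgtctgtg
Itgax: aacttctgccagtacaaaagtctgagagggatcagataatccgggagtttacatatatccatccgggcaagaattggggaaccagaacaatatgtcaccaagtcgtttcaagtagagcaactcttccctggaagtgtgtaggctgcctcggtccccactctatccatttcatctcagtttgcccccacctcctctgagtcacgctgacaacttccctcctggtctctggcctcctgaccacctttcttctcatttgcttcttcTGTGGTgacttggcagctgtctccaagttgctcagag
The Itgam window held GAGGAA 3 times and GGGCGG 1 time, the Itgax window held TGTGGT 1 time, the Itga2 window held GGGCGG 1 time, and the Itga1 window held none of these letters. Among all 32851 promoter windows of the same length, 28.3% held GAGGAA, 16.8% held TGTGGT and 35.7% held GGGCGG. A match is a string of letters and not a shown binding site. Windows were found for 7 of the 10 genes.

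The 2 rows named Itgam in the matrices carry different identifiers. ENSMUSG00000030786 is Itgam in the annotation (GRCm38, chromosome 7, 128062640 to 128118491) and held 77 UMIs in the CD122+CD49a+ library and 580 in the LSM library. ENSMUSG00000108596 is named Gm49368 there (128062683 to 128128160, the same strand) and held 16 UMIs in the CD122+CD49a+ library and 34 in the LSM library. Of the exon bases of Itgam 68.7% also belong to another gene on the same strand, but none of its last 1000 exon bases do, which is where 3′ reads fall. The 2 rows were summed, and reads from the shared part could have been assigned to either or dropped by the counting. Itga1 (chromosome 13, 114953096 to 115101964) overlaps Pelo and Gm49395 on its own strand over 3.68% of its exon bases and none of the last 1000.

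Across whole libraries, the chain named in each gate was not equally marked in RNA. Itga1 had 42.1 CPM (99 UMIs) in the CD122+CD49a+ library and 1.36 CPM (22 UMIs) in the LSM library, a ratio of 31.0 [19.4 to 51.7]. Itgam had 39.5 CPM (93 UMIs) in the CD122+CD49a+ library and 37.9 CPM (614 UMIs) in the LSM library, a ratio of 1.04 [0.829 to 1.30]. The gate was set on surface protein, and at this scaling the RNA of the Mac-1 alpha chain differed by less than counting error between the library that was not sorted for Mac-1 and the one that was.

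Of the other alpha chains, Itgae and Itga2 had large ratios from few UMIs. Itgae had 23.4 CPM (55 UMIs) in the CD122+CD49a+ library and 0.927 CPM (15 UMIs) in the LSM library, a ratio of 25.2 [14.1 to 48.1]. Itga2 had 12 UMIs in the CD122+CD49a+ library and 2 in the LSM library, and its ratio of 41.3 has an interval that runs from 9.19 to 380. Itgal had 378 CPM in the CD122+CD49a+ library and 84.5 CPM in the LSM library, a ratio of 4.47 [4.10 to 4.87]. Itgax had 159 CPM against 47.6 CPM in LSM cells (ratio 3.34 [2.94 to 3.78]), and Itga4 had 319 CPM against 131 CPM in LSM cells (ratio 2.43 [2.23 to 2.64]).

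The beta chains differed less between the gates than most of their partners. Itgb1 had 340 CPM in the CD122+CD49a+ library and 137 CPM in the LSM library (ratio 2.47 [2.28 to 2.68]). Itgb2 had 260 CPM in the CD122+CD49a+ library and 119 CPM in the LSM library (ratio 2.19 [1.996 to 2.399]). Itgb7 had 329 CPM in the CD122+CD49a+ library and 237 CPM in the LSM library (ratio 1.39 [1.285 to 1.502]).

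**Figure D1:**
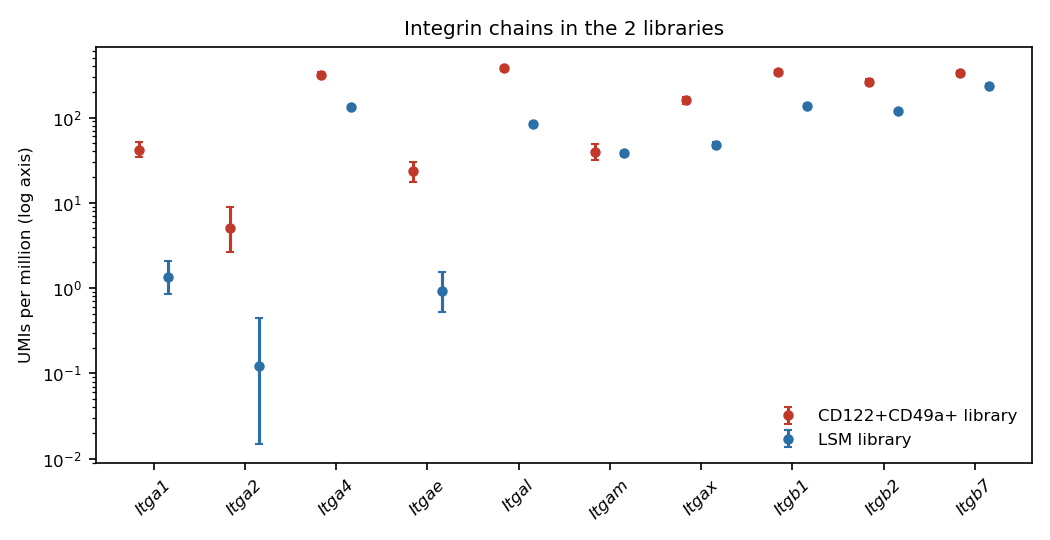
CPM of each integrin chain (log axis) in the CD122+CD49a+ library and the LSM library, with exact 95% intervals for counting error. Itga1, Itga2 and Itgae lie furthest apart and the Itgam intervals overlap, at 39.5 and 37.9 CPM.

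In all, 8 of the 10 chains were at least 2-fold higher in the CD122+CD49a+ library and 0 were at least 2-fold lower. Among all 11408 genes that reached 20 UMIs over the 2 libraries, 26.4% were at least 2-fold higher and 9.66% at least 2-fold lower. Of the 9 chains with that many UMIs, 7 were at least 2-fold higher, with a median log2 ratio of 1.31 against 0.31 over all genes. These counts depend on scaling and on the mix of cells. Under TMM scaling, which lowers every log2 ratio by the same amount (a shift of -0.44), 5 chains passed 2-fold and the Itgam ratio was 0.770 [0.612 to 0.958], with an interval below 1. The 4 classes found in both libraries were also weighted equally, an alternative added after the data were seen. Then 3 chains passed (Itga1 3.36, Itgae 3.04, Itgax 2.79) and Itgam was at 1.52. Itga2 gave no ratio there, since it had 0 UMIs in these classes of the LSM library, and was counted as not passing. Whether the libraries differ in the number of cells of a type or in RNA per cell cannot be told apart from these sums.

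At matched depth the shares gave the same picture. Of CD122+CD49a+ barcodes 4.14% [3.01 to 5.53] had an Itga1 UMI, and of LSM barcodes 0.0655% [0.00794 to 0.236]. Itgam was found in 3.56% [2.52 to 4.88] of CD122+CD49a+ barcodes and 4.59% [3.87 to 5.39] of LSM barcodes. Without thinning the Itgam shares were 6.52% of CD122+CD49a+ and 15.2% of LSM barcodes, so the difference in the unthinned Itgam shares goes with depth. The other 8 chains had higher shares in CD122+CD49a+ barcodes, with intervals that did not overlap those of LSM barcodes. How many of all genes did so was not counted, so the 8 cannot be set against a background of shares. By CPM, 26.4% of all genes were at least 2-fold higher in this library and 9.66% at least 2-fold lower.

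Each barcode was placed in a class by the marker list with the most genes detected in it, at least 2, from 14 lists of 6 markers that hold no integrin gene. This classed 1019 CD122+CD49a+ barcodes and 2270 LSM barcodes. The CD122+CD49a+ library held 695 lymphocytes (T, NK and innate), 122 type 1 and 102 type 2 conventional dendritic cells (cDC1 and cDC2), 70 monocytes and 238 unclassed barcodes. The LSM library held 489 progenitors, 488 cDC2, 365 monocytes, 229 plasmacytoid DCs (pDC), 205 cDC1, 189 mature DCs, 112 basophils, 78 lymphocytes, 78 plasma cells, 35 Kupffer cells and 804 unclassed barcodes. Classes are marker rules: 257 CD122+CD49a+ and 680 LSM barcodes sat at exactly 2 markers, and 44 CD122+CD49a+ and 393 LSM barcodes also had at least 2 markers of another class. Doublets were not removed here. Among the 10 genes leading each class, no other list had more markers than the class's own. The class rule itself favours that outcome, so it is not a check of the class names.

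Itga1 was concentrated in lymphocytes. The lymphocytes of the CD122+CD49a+ library held 83 of its 99 Itga1 UMIs (83.8%), at 78.3 CPM [62.4 to 97.1]. Its cDC1 had 11.4 CPM (5 UMIs), its cDC2 4.01 CPM (1 UMI) and its monocytes 0 of 70 barcodes, which allows a share of up to 4.29%. The lymphocyte interval stood clear of the next class. Without thinning, 9.78% of these lymphocytes had an Itga1 UMI at a median depth of 1306 UMIs, and the monocytes without one had a median of 1472.5 UMIs. The cDC1 with a share of 4.10% were deeper, at 3466 UMIs, and at matched depth the shares were 6.57% [4.67 to 8.94] in lymphocytes and 0.833% [0.0211 to 4.56] in cDC1. In the LSM library, 22 Itga1 UMIs were spread over lymphocytes (5 UMIs, 23.7 CPM), cDC2 (8 UMIs, 2.74 CPM) and others, with 0 in 489 progenitors, which allows a share of up to 0.613%. Most barcodes sorted for CD49a had no Itga1 UMI, which at this depth does not show that they lacked the transcript.

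In the CD122+CD49a+ library Itga2 lay in the same class, with 11 of its 12 UMIs in lymphocytes (10.4 CPM [5.18 to 18.6]). The other 3 classes of that library had no Itga2 UMI. Its 2 UMIs in the LSM library lay in a basophil and a plasma cell, and lymphocytes there had none.

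Itgam had its highest level in monocytes in both libraries. Monocytes had 244 CPM [161 to 355] in the CD122+CD49a+ library and 160 CPM [137 to 186] in the LSM library. In cDC2 it had 112 CPM [74.7 to 162] in the CD122+CD49a+ library and 63.7 CPM [54.8 to 73.5] in the LSM library. Lymphocytes of either library had 2 Itgam UMIs. In the LSM library the 35 Kupffer cells came second, with 97.2 CPM [46.6 to 179] from 10 UMIs in 5 barcodes. There basophils had 70.3 CPM (16 UMIs), plasma cells 34.3 CPM (17 UMIs), progenitors 18.1 CPM [13.5 to 23.7] and pDC 6.53 CPM (7 UMIs). At matched depth 15.6% [12.0 to 19.8] of LSM monocytes and 1.43% [0.577 to 2.93] of progenitors had an Itgam UMI. The LSM library was sorted for Mac-1 protein, which was not measured per barcode. Of the 614 Itgam UMIs of the LSM library, 30.3% lay in cDC2, 27.9% in monocytes and 8.63% in progenitors.

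Itgae had its highest level in the cDC1 of the CD122+CD49a+ library. The cDC1 of the CD122+CD49a+ library had 70.9 CPM [48.2 to 101] from 31 UMIs, with a UMI in 10.8% [5.90 to 17.8] of barcodes at matched depth. The cDC1 of the LSM library had 1.18 CPM [0.143 to 4.27] from 2 UMIs, with a UMI in 0.488% [0.0123 to 2.69]. The ratio was 60.0 [15.3 to 517]. Both cDC1 groups were led by Xcr1, Tlr3, Rab7b and Gcsam. These are markers that set the class, so they do not show by themselves that the 2 groups are alike. CD103, the product of Itgae, is known on part of the cDC1 of mouse tissues. Neither library had an Itgae UMI in cDC2, and lymphocytes had 7.55 CPM (8 UMIs) in the CD122+CD49a+ library and 23.7 CPM (5 UMIs) in the LSM library.

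Itgal and Itgb2, the 2 chains of LFA-1, followed each other over classes. Itgal was highest in monocytes, at 876 CPM [710 to 1068] in the CD122+CD49a+ library and 666 CPM [618 to 717] in the LSM library, and lowest in LSM mature DCs at 9.17 CPM [3.96 to 18.1]. Itgb2 was also highest in monocytes (506 CPM in the CD122+CD49a+ library, 488 CPM in the LSM library) and lowest in mature DCs (25.2 CPM [15.8 to 38.2]). Lymphocytes had an Itgal level of 512 CPM in the CD122+CD49a+ library and 94.7 CPM in the LSM library, a ratio of 5.41 [3.47 to 8.93]. The lymphocytes of the 2 libraries differed in make-up: a CD3 chain but no CD8 chain was found in 565 and a CD8 chain in 115 of the CD122+CD49a+ library, against 31 and 47 of the LSM library. Split that way after the data were seen, Itgal in CD8 cells had 343 CPM in the CD122+CD49a+ library and 123 CPM (14 UMIs) in the LSM library, a ratio of 2.79 [1.55 to 5.37]. In CD3 cells without a CD8 chain it had 560 CPM in the CD122+CD49a+ library and 61.7 CPM (6 UMIs) in the LSM library, a ratio of 9.07 [4.14 to 24.9]. Over 14 class-by-library profiles of log2(CPM + 10), Pearson's r of Itgal and Itgb2 was 0.95. The same measure was 0.53 for Itgam and Itgb2, 0.52 for Itga1 and Itgb1, 0.47 for Itgax and Itgb2, 0.32 for Itga4 and Itgb1, 0.28 for Itga2 and Itgb1, 0.19 for Itgae and Itgb7 and -0.066 for Itga4 and Itgb7. Profiles of 1 library share its sequencing depth and handling, and r is given as a description. Itga1, Itga2 and Itgae were under 10 CPM in most profiles, so their r values rest on few of them.

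Itgax, the CD11c chain used to define dendritic cells, had 297 CPM [233 to 373] in cDC2 and 201 CPM [161 to 248] in cDC1 of the CD122+CD49a+ library, and 72.2 CPM [62.8 to 82.6] and 52.6 CPM [42.3 to 64.8] in the same classes of the LSM library. Monocytes had 181 CPM [110 to 279] in the CD122+CD49a+ library and 102 CPM [83.8 to 123] in the LSM library. In the LSM library monocytes and Kupffer cells (97.2 CPM [46.6 to 179]) thus ranked above both DC classes, and the Kupffer cell interval overlaps that of each. LSM basophils (0 of 112 barcodes, a limit of 2.68%) and plasma cells (0 of 78, a limit of 3.85%) had none.

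Itga4, which pairs with beta 1 or beta 7, was highest in monocytes (605 CPM in the CD122+CD49a+ library, 322 CPM in the LSM library) and had 2 UMIs in 112 LSM basophils (8.79 CPM [1.06 to 31.7]). Itgb1 was highest in lymphocytes, at 524 CPM [481 to 569] in the CD122+CD49a+ library and 436 CPM [351 to 534] in the LSM library, and lowest in plasma cells at 22.2 CPM [11.1 to 39.7]. Itgb7 was instead highest in plasma cells (450 CPM [393 to 513]) and low in mature DCs (49.3 CPM [35.7 to 66.4]) and Kupffer cells (38.9 CPM from 4 UMIs). Among the 10 LSM classes, mature DCs thus ranked near the top for Itga4 (269 CPM) and Itgb1 (302 CPM) and at or next to the bottom for Itgal, Itgb2 and Itgb7, and plasma cells ranked highest for Itgb7 and lowest for Itgb1. Many classes next to each other in these orders had overlapping intervals: in the LSM orders of Itga1, Itgam and Itgax, 0 of the neighbouring classes were apart, and in that of Itgal 3 neighbouring steps were.

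**Figure D2:**
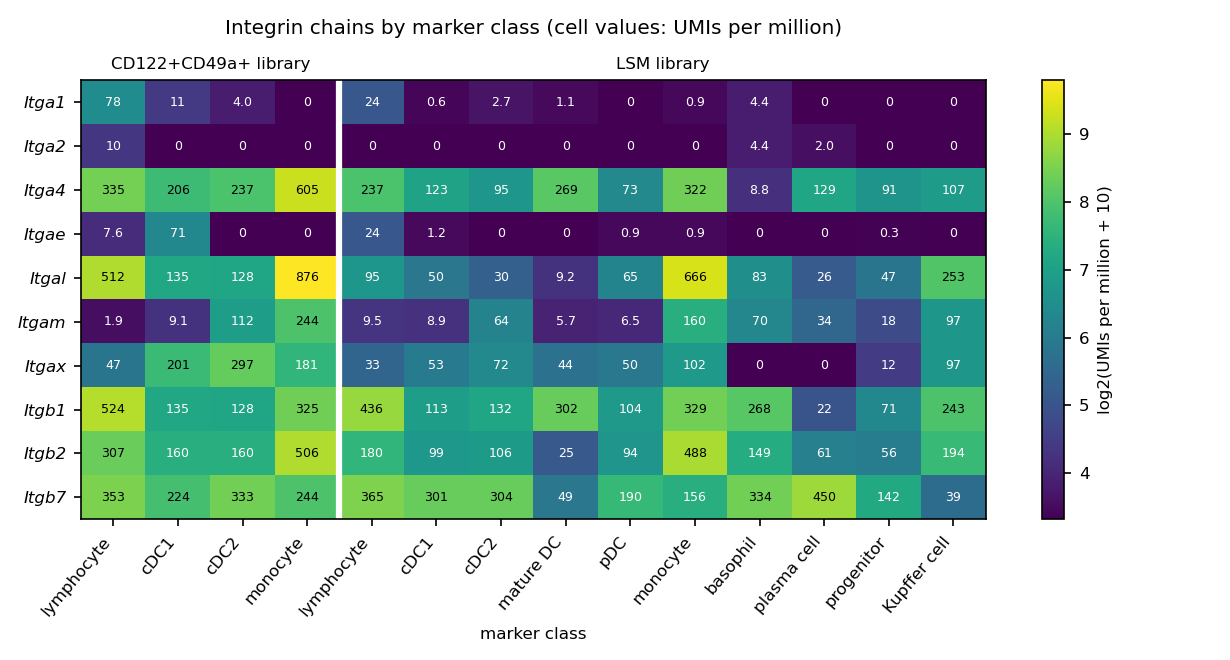
CPM of each integrin chain in classes of at least 20 barcodes, the CD122+CD49a+ library on the left and the LSM library on the right; colour is log2(CPM + 10). Itga1 is brightest in lymphocytes, Itgae in cDC1 of the CD122+CD49a+ library, Itgal and Itgb2 in monocytes and Itgb7 in plasma cells.

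Within a class fewer chains passed 2-fold between the libraries. Of the 7 chains with at least 20 UMIs in lymphocytes, 2 were at least 2-fold higher in CD122+CD49a+ cells (Itga1, ratio 3.31 [1.36 to 10.5], and Itgal), where 27.2% of 6053 genes were. In cDC1, 3 of 7 were (Itgae, Itgal 2.72 and Itgax 3.82), against 16.5% of genes, and in cDC2, 3 of 7 were (Itga4 2.48, Itgal 4.31 and Itgax 4.11), against 25.7%. In monocytes 0 of 7 were, against 21.1%. None of the 7 chains counted in each class was 2-fold lower there, where 6.91% of genes in lymphocytes, 14% in cDC1, 10.5% in cDC2 and 15.4% in monocytes were. Within CD8 lymphocytes Itga1 had 45.3 CPM (9 UMIs) in the CD122+CD49a+ library and 43.9 CPM (5 UMIs) in the LSM library, a ratio of 1.03 [0.311 to 3.92]. In CD3 cells without a CD8 chain it had 86.7 CPM (72 UMIs) in the CD122+CD49a+ library and 0 UMIs in the 31 barcodes of the LSM library. Itgae and Itgam had too few UMIs in lymphocytes to be counted: Itgae had 8 UMIs (7.55 CPM) in the CD122+CD49a+ library and 5 UMIs (23.7 CPM) in the LSM library. Monocyte ratios were 0.988 [0.681 to 1.40] for Itgb1 and 1.04 [0.772 to 1.37] for Itgb2.

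Whether a beta chain was found more often in the very barcodes with its alpha chain was asked for 8 known pairs within each class. There were 28 combinations of class and pair with at least 20 alpha-chain barcodes at matched depth. The beta chain was more frequent in alpha-chain barcodes in 13 and less frequent in 15, and in 0 of 28 did the intervals separate. In CD122+CD49a+ lymphocytes Itgb1 was found in 16 of 37 barcodes with an Itga1 UMI (43.2% [27.1 to 60.5]) and in 177 of 526 without (33.7% [29.6 to 37.9]). For Itga4 and Itgb1 in the same cells the shares were 42.3% [34.0 to 50.8] with the alpha chain and 31.6% [27.2 to 36.3] without. Taken over all LSM barcodes, Itgb2 was found in 30.9% [25.8 to 36.5] of barcodes with Itgal and 10.2% [9.08 to 11.4] of those without. Among LSM monocytes alone it was found in 42.6% [35.4 to 50.1] of barcodes with Itgal and 37.1% [30.0 to 44.8] of those without.

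**Figure D3:**
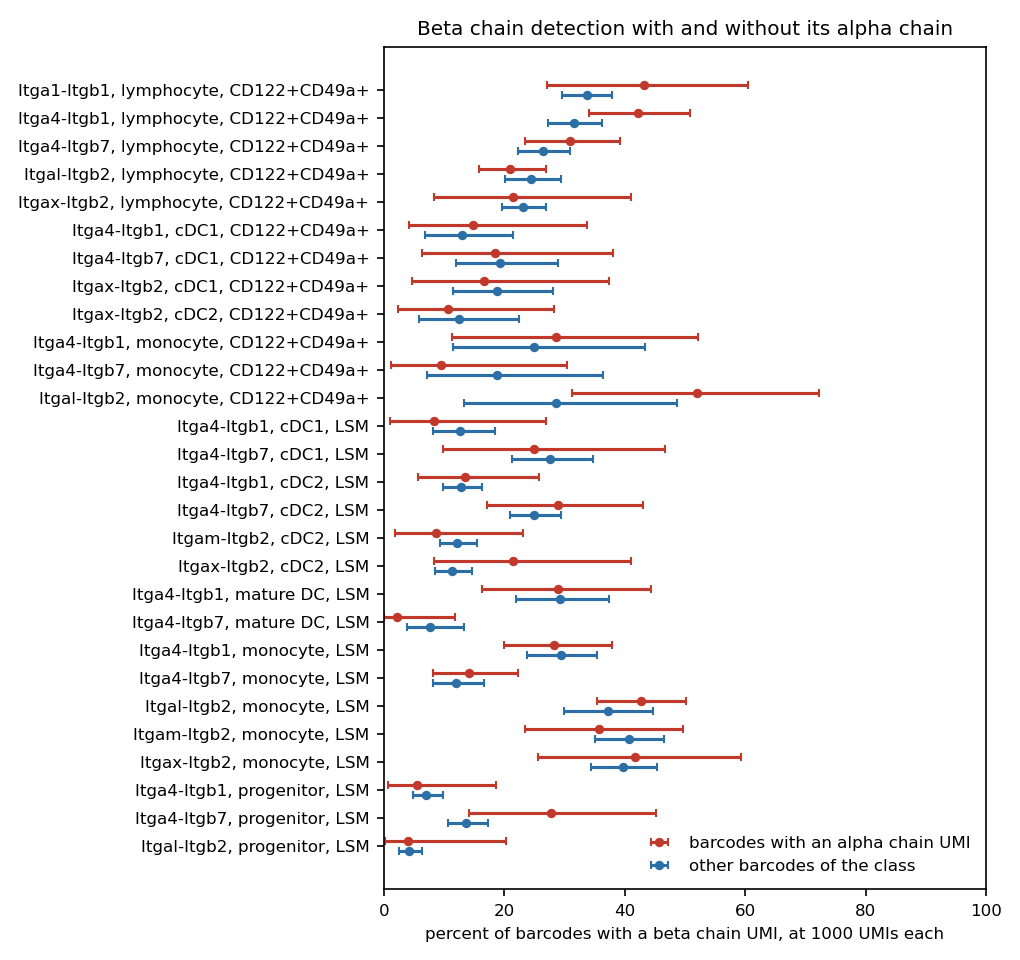
Percent of barcodes with a beta chain UMI, at 1000 UMIs per barcode, among barcodes with a UMI of the alpha chain (red) and the other barcodes of the same class (blue), with exact 95% intervals, for the 28 combinations with at least 20 alpha-chain barcodes. The intervals overlap in every combination.

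The lymphocytes of the CD122+CD49a+ library were split by CD3 and CD8 chain UMIs. A CD3 chain but no CD8 chain was found in 565, a CD8 chain in 115, and neither in 15. Cd3d, Cd3e and Cd3g are among the markers that set the lymphocyte class, so the class rule favours barcodes with a CD3 chain. The 15 with neither are therefore not a count of the innate cells in the library, and the proportion of T cells was not tested. The T cell genes Cd3d, Cd3e, Cd3g, Cd4, Cd8a, Cd8b1, Cd5 and Bcl11b were all at least 2-fold higher in this library than in the LSM library, as were 26.4% of all genes, although both gates were labelled lineage-negative. Itgal had 560 CPM in CD3 cells without a CD8 chain and 343 CPM in CD8 cells, a ratio of 1.63 [1.26 to 2.14]. Itgb1 had 488 CPM in CD3 cells without a CD8 chain and 726 CPM in CD8 cells, a ratio of 0.672 [0.554 to 0.819]. Itga4 had a ratio of 0.745 [0.582 to 0.961], and Itgae, with 3 UMIs against 5 UMIs in CD8 cells, a ratio of 0.143 [0.0223 to 0.737]. That Itgae ratio was 0.772 [0.270 to 2.69] when a class needed 1 marker. By CPM the beta 1 and alpha 4 chains thus stood higher in cells with a CD8 chain, and alpha L in those without. At matched depth the Itga4 intervals overlapped, at 34.3% [25.3 to 44.2] in CD8 cells and 23.6% [19.7 to 27.8] in CD3 cells without a CD8 chain. The intervals did not overlap for Itgb1 (46.7% in CD8 cells, 31.3% in CD3 cells without a CD8 chain) and Itgal (24.8% and 42.4%). Itga1 had 86.7 CPM in CD3 cells without a CD8 chain and 45.3 CPM in CD8 cells, and the interval of the ratio of 1.91 [0.953 to 4.35] includes 1.

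**Figure D4:**
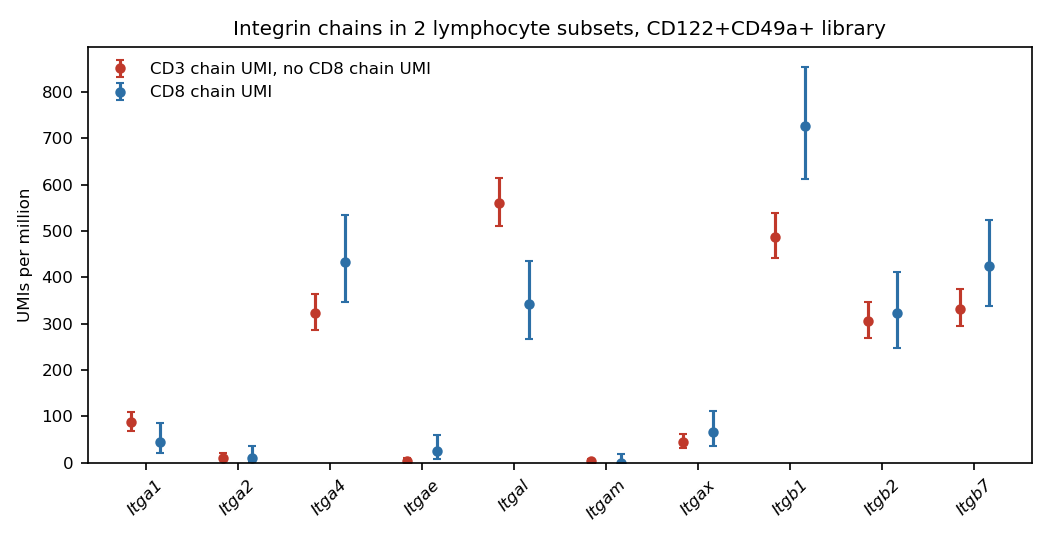
CPM of each integrin chain in lymphocytes of the CD122+CD49a+ library with a CD3 but no CD8 chain UMI (565 barcodes) and with a CD8 chain UMI (115 barcodes), with exact 95% intervals. Itgal lies higher in the group without CD8, Itgb1 and Itga4 in the group with it, and the Itga4 intervals overlap.

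The last question was whether lymphocytes with an Itga1 UMI in the CD122+CD49a+ library differ from its other lymphocytes. There were 68 such barcodes, 54 with 1 UMI and 14 with more, against 627 others. Median depth was 1271 UMIs in Itga1-UMI lymphocytes and 1310 UMIs in the others. The share with an Itga1 UMI was 10.4%, 10.4%, 8.57% and 9.77% over the 4 quartiles of barcodes by depth, lowest first. The lowest quartile ran from 686 to 1061 UMIs and the highest from 1658 to 13043 UMIs. A CD8 chain was found in 8 Itga1-UMI lymphocytes (11.8% [5.22 to 21.9]) and 107 others (17.1% [14.2 to 20.2]). All came from a library sorted for CD49a protein, which was not measured per barcode. The others are therefore not shown to be a group without it.

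Of the 6 other integrin chains with at least 20 UMIs, 1 was at least 2-fold higher in Itga1-UMI lymphocytes and 0 were lower, where 6.29% of 5577 genes were 2-fold higher and 10.2% were 2-fold lower. Their median log2 ratio was 0.34, against 0.04 over all genes. Itgax had 121 CPM (12 UMIs in 11 barcodes) in Itga1-UMI lymphocytes and 39.6 CPM (38 UMIs in 34 barcodes) in the others, a ratio of 3.05 [1.45 to 5.96]. Itga4 had 513 CPM in Itga1-UMI lymphocytes and 317 CPM in the others, a ratio of 1.62 [1.18 to 2.19]. Itgb1, the partner of Itga1, had 725 CPM in Itga1-UMI lymphocytes and 503 CPM in the others, a ratio of 1.44 [1.11 to 1.85].

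Cycling cells were counted in both groups. With at least 2 of 8 cell cycle genes detected, 6 Itga1-UMI lymphocytes (8.82% [3.31 to 18.2]) and 27 others (4.31% [2.86 to 6.20]) were counted as cycling. The 6 held 32 of the 72 Itgb1 UMIs of their group, at 1969 CPM, and the cycling others had 733 CPM. Up to 15 Itgb1 UMIs came from 1 barcode in either group, and the intervals do not cover such clumping. Among lymphocytes that were not cycling, Itgb1 had 481 CPM [344 to 655] in Itga1-UMI cells and 474 CPM [429 to 523] in the others, a ratio of 1.02 [0.715 to 1.41]. Among the same cells Itga4 had 457 CPM [324 to 628] in Itga1-UMI cells and 316 CPM [279 to 356] in the others, and these intervals overlap. At matched depth, cycling cells included, an Itga4 UMI was found in 39.2% [25.8 to 53.9] of Itga1-UMI lymphocytes. The share was 23.8% [20.2 to 27.8] in the others. The Itgax ratio was 3.11 [1.37 to 6.46] without cycling cells. Itgal (1.11 [0.827 to 1.47]), Itgb2 (1.09 [0.738 to 1.57]) and Itgb7 (0.722 [0.465 to 1.08]) had intervals that include 1.

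Over all genes 6.29% were at least 2-fold higher in Itga1-UMI lymphocytes and 10.2% at least 2-fold lower. These shares are the background for the short gene lists that follow. Genes of resident lymphocytes had ratios within 2-fold at the settings used, and 0 of so short a list is near that background. Of 9 measured genes of that list, which includes the chemokine receptor Cxcr6 (1.20 [0.814 to 1.72]), the retention receptor Cd69 (1.16 [0.630 to 1.99]), Xcl1 (1.06 [0.826 to 1.35]) and the transcription factor Zfp683 (1.33 [0.340 to 3.80]), 0 passed 2-fold in either direction, with a median log2 ratio of 0.26. The number at least 2-fold higher was 2 when at least 2 Itga1 UMIs were needed and 1 when a class needed 1 marker. Cxcr6 had a ratio of 5.22 [1.72 to 14.7] in barcodes with at least 1000 detected genes and 0.756 [0.244 to 1.79] with at least 2 Itga1 UMIs. Of 3 measured genes of circulating cells and tissue egress, Klf3 passed 2-fold downward from 3 UMIs (0.345 [0.0698 to 1.04]), and its interval, like those of Klf2 and the egress receptor S1pr1, includes 1. Of 8 T cell genes 0 passed, among them Bcl11b (1.12 [0.695 to 1.73]) and Cd8a (0.632 [0.248 to 1.35]). Cd3e was at 1.22 [0.945 to 1.55], but Cd3d, Cd3e and Cd3g are markers that placed both groups in the lymphocyte class. Their ratios are therefore not a free comparison.

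Of 7 measured NK and innate genes 1 was at least 2-fold higher, beside 6.29% of all genes. Gzmb, a granzyme of cytotoxic granules, had 765 CPM in Itga1-UMI lymphocytes and 345 CPM in the others (ratio 2.22 [1.71 to 2.85]). Gzma, another granzyme, had a ratio of 1.69 [1.44 to 1.98]. With at least 2 Itga1 UMIs the Gzmb ratio was 1.13 [0.511 to 2.17] and the Gzma ratio 2.74 [2.13 to 3.49]. Both lay in few barcodes of the Itga1-UMI group, Gzmb with 76 UMIs in 20 barcodes and up to 13 in 1, and Gzma with 188 UMIs in 13 barcodes and up to 37 in 1, and the intervals do not cover such clumping. At matched depth a Gzmb UMI was found in 19.6% [9.82 to 33.1] of Itga1-UMI lymphocytes and 20.1% [16.7 to 23.9] of the others, and a Gzma UMI in 21.6% [11.3 to 35.3] of Itga1-UMI lymphocytes and 13.1% [10.3 to 16.3] of the others. The receptors Klrb1c (0.826 [0.386 to 1.57]) and Klrk1 (0.999 [0.680 to 1.42]) and the adaptor Tyrobp (1.12 [0.815 to 1.51]) had intervals that include 1.

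The 10 genes ranked furthest in each direction had few UMIs, and with 351 genes past 2-fold upward and 567 downward their order is uncertain. Klra9, a Ly49 receptor, led the higher genes with 141 CPM in Itga1-UMI lymphocytes and 33.3 CPM in the others (ratio 4.23 [2.08 to 8.15]), from 14 UMIs in 5 barcodes, 7 of them in 1 barcode. The others were Gfpt1 (ratio 4.20), Tmx1, Vps36, Hiatl1, Taok1, Itgax, Tspan13, Snx1 and Srp72 (2.76). Among the lower genes Il7r, the interleukin-7 receptor alpha chain, had 101 CPM in Itga1-UMI lymphocytes and 245 CPM in the others (ratio 0.411 [0.195 to 0.770]), and Satb1, a chromatin organiser of T cells, had a ratio of 0.389 [0.141 to 0.867]. Fam49b (0.242), Ipcef1, Mrps33, Itch, Srsf11, Cln3, Tmem50a and the heat shock gene Hspa1a (0.420) completed the list.

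Markers of some other cells were found in both lymphocyte groups. The basophil, Kupffer cell, neutrophil, endothelial, platelet, hepatocyte and stellate cell lists had 0 UMIs in either. The cDC2 list summed to 30.2 CPM (3 UMIs, 1 of 6 genes seen) in Itga1-UMI lymphocytes and 8.33 CPM (8 UMIs, 2 of 6) in the others. The cDC1 list summed to 20.1 CPM (2 UMIs) in Itga1-UMI lymphocytes and 8.33 CPM in the others, and the monocyte list to 40.2 CPM (4 UMIs, 2 of 6 genes) in Itga1-UMI lymphocytes and 24.998 CPM (24 UMIs, 4 of 6) in the others. The pDC list summed to 60.3 CPM (6 UMIs, 2 of 6 genes) in Itga1-UMI lymphocytes and 41.7 CPM (40 UMIs, 2 of 6) in the others, and the mature DC list to 20.1 CPM (2 UMIs) in Itga1-UMI lymphocytes and 7.29 CPM (7 UMIs) in the others. Itgax is also a chain of those cells, and their part in its ratio was not tested.

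**Figure D5:**
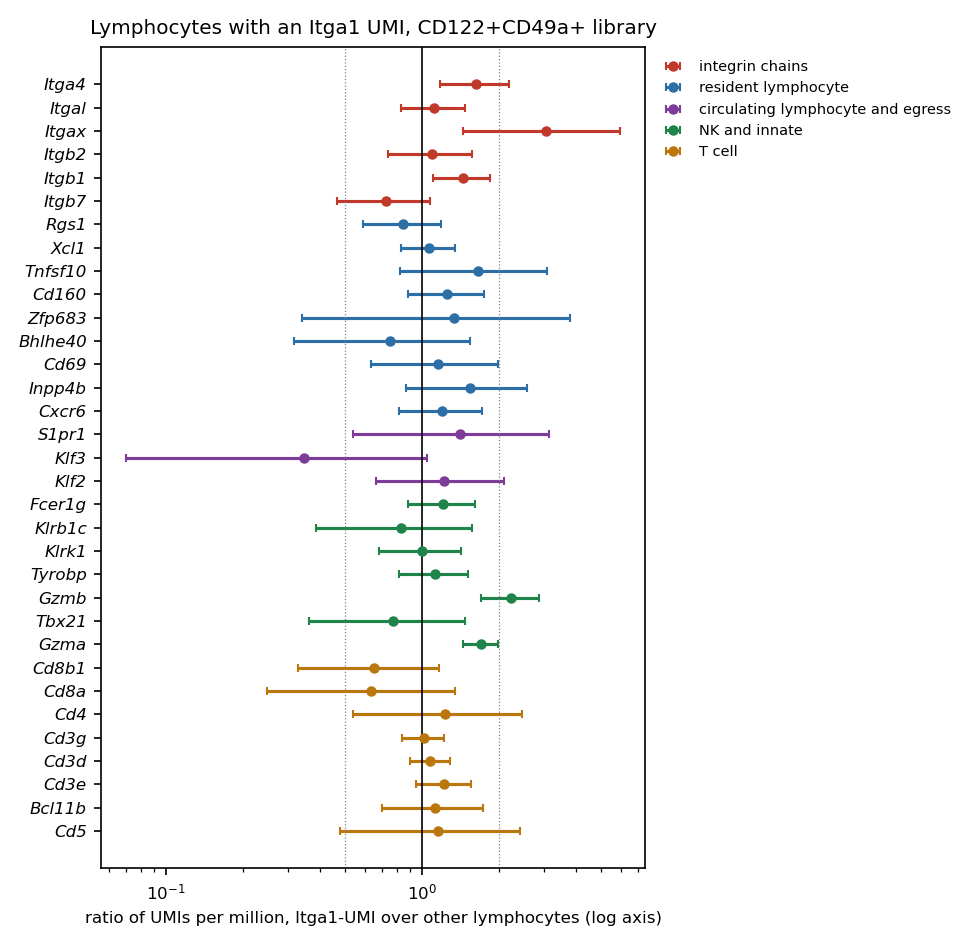
Ratio of CPM in Itga1-UMI lymphocytes over the other lymphocytes of the CD122+CD49a+ library (log axis) for the measured genes of 5 lists, with exact 95% intervals; dotted lines mark 2-fold. Itgax at 3.05 and Gzmb at 2.22 lie past 2-fold and Klf3 at 0.345 below, and the resident lymphocyte genes lie between the dotted lines.

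Among 9969 genes with at least 50 UMIs, the class profiles most like that of Itga1 were those of Stk32c (Pearson's r 0.98 over 14 profiles), Sh2d2a, Klrc2, Abcb1a and Cd3e (0.94). Those most like Itgam were Clec4a3 (0.91), Igsf6, Clec4a1, Dok3 and Msrb1 (0.89). The first group included genes of T and NK cells such as Klrc2, an NKG2 receptor chain, and Cd3e. Class markers were left in the ranking, and Cd3e is a marker that set the lymphocyte class. Itga1 was above 10 CPM only in lymphocytes (78.3 CPM in the CD122+CD49a+ library, 23.7 CPM in the LSM library) and CD122+CD49a+ cDC1 (11.4 CPM). Its r values thus rest on few profiles. The second group held C-type lectin receptors of myeloid cells, Clec4a1 and Clec4a3.

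Of 16 other integrin chains, 7 had at least 20 UMIs and 5 of these were at least 2-fold higher in the CD122+CD49a+ library, beside 26.4% of all genes. Itgb3 had 14.9 CPM in the CD122+CD49a+ library and 2.10 CPM in the LSM library (ratio 7.09 [4.29 to 11.7]), and 29 of its 35 UMIs in the CD122+CD49a+ library came from lymphocytes. Its partner Itgav had a ratio of 3.56 [2.66 to 4.73] between the libraries. Between Itga1-UMI and other lymphocytes, 1 of the 2 of these chains with enough UMIs was at least 2-fold higher, beside 6.29% of all genes. This was Itgav, with 7 UMIs in Itga1-UMI lymphocytes and 29 UMIs in the others (ratio 2.33 [0.862 to 5.44]). Of 5 measured ligand genes, 1 passed, fibronectin (Fn1, ratio 4.49), and the LFA-1 ligands Icam1 (1.62) and Icam2 (1.99) did not. A further list held 12 genes for the control of integrin activation, in either direction, from inside the cell. Of these, 3 were at least 2-fold higher (Skap1 25.1, Sharpin 2.75 and Rassf5 2.28) and Rap1a was lower (0.415). The median log2 ratio of the list was 0.55. The 3 of 12 is near the 26.4% of all genes that were 2-fold higher. Talin (Tln1) was at 1.26 and kindlin-3 (Fermt3) at 1.46. Between Itga1-UMI and other lymphocytes 0 of 11 measured genes of this list passed 2-fold, beside 6.29% of all genes higher and 10.2% lower.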

How the data were processed

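Liver leukocytes of 2 sort gates were measured by droplet single-cell RNA sequencing. The matrices hold raw UMI counts per gene and barcode as deposited by the authors, written by software 3.0.1, per the file headers. Per the submitters' processing notes, the tools were STAR and Seurat 2.3.0 and the build GRCm38, without further detail. Groups come from the sample labels.

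From these counts, barcodes with at least 500 detected genes were kept, and levels, shares, ratios and exact 95% intervals were computed with Python 3.11.15 and scipy 1.17.1. Barcodes were thinned without replacement (seed 1). Where a group had no count, a floor of 3 counts gave the bound. Gene positions are from GENCODE M21 (GRCm38). A gene was measured with at least 20 UMIs in both groups together, and called past 2-fold with no test. The integrin chains, the 7 gene lists and the marker lists were chosen with earlier results of these data known. Named genes were the 10 chains, members of those lists, the 10 largest ratios in each direction among genes with at least 100 CPM in the higher group (without mitochondrial, ribosomal, Gm-numbered, Rik, immunoglobulin and T cell receptor genes) and the 5 profiles most like Itga1 and Itgam. Alternatives varied the gene minimum, thinning depth, marker number, scaling (edgeR 4.0.16), doublet removal by Scrublet score in scanpy 1.11.5 at 0.8% per 1000 barcodes, and the mitochondrial limit. Depth limits the CD122+CD49a+ library more: 218 of its kept barcodes and 22 of the LSM library fell under 1000 UMIs. Intervals were tested on simulated data. Protein sequences were not analysed here.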

Additional observations from a re-analysis of the deposited data

Results flagged for a closer look

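Barcodes under 500 detected genes were outside all comparisons, yet held integrin UMIs in numbers above the 3 counts that a count of 0 allows. As shares of barcodes that limit is 0.754% in the CD122+CD49a+ library and 5.08% in the LSM library, and the LSM share of Itgam (4 UMIs in 3 barcodes) equals it. In the 398 such barcodes of the CD122+CD49a+ library (median 666 UMIs), a UMI was found in 3.02% for Itga1, 27.1% for Itga4, 1.01% for Itgae, 27.4% for Itgal, 5.53% for Itgam, 9.80% for Itgax, 22.9% for Itgb1, 16.1% for Itgb2 and 22.1% for Itgb7. In the 59 such barcodes of the LSM library (median 643 UMIs), the shares were 20.3% for Itga4, 16.9% for Itgal, 5.08% for Itgam, 16.9% for Itgax, 10.2% for Itgb1, 15.3% for Itgb2 and 30.5% for Itgb7, and Itga1, Itga2 and Itgae had 0 UMIs there.

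Itgb7 differed between the gates in opposite directions in 2 classes. Its ratio of CD122+CD49a+ over LSM was 1.57 [1.003 to 2.364] in monocytes and 0.745 [0.594 to 0.926] in cDC1. The difference between these ratios was not tested, since each rests on 1 library per gate.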

How the results depend on the processing

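Of 800 alternatives to 88 results, 682 stayed within the counting interval or within 1.5 times of the count, and 118 moved. Of the ratios whose interval stood clear of 1, 0 turned round. A ratio whose interval includes 1 could change direction and still be among the 682. Itgam, whose interval includes 1 without TMM scaling, lay between 0.770 [0.612 to 0.958] under TMM scaling and 1.52 with shared classes weighted equally. Ranked genes with 0 UMIs in 1 group under an alternative gave no value there. The number of chains at least 2-fold higher in the CD122+CD49a+ library, 8, was 5 under TMM scaling. With equal classes (added after the data were seen) it was 3, and Itga2 gave no ratio there. The number of genes past 2-fold in Itga1-UMI lymphocytes rests on small counts: 918 genes became 229 with at least 1000 detected genes, 2486 with at least 2 Itga1 UMIs, 208 at a minimum of 50 UMIs and 1638 at 10 UMIs. The Itga1 and Itgb1 pair share of 43.2% was 24.5% at 750 UMIs, where it was 27.4% without an Itga1 UMI, so the order turned there. Of the 20 highest classes (10 chains in 2 libraries), 12 stayed when a barcode needed 3 markers and none of another class (added after the data were seen), under which fewer barcodes and classes are left, and 14 stayed with at least 1000 detected genes. No paired analysis was possible because each gate had 1 library.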

Other observations

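Of the 16 other integrin chains, Itga7, Itga11 and Itgb6 had 0 UMIs in both libraries, and Itga9 and Itgb8 had UMIs in the LSM library only (18 and 9). The E-cadherin gene Cdh1, whose product is the ligand of the alpha E beta 7 integrin, was detected in LSM basophils at 158 CPM [111 to 219] and in LSM pDC at 24.3 CPM [15.8 to 35.6]. LSM basophils also had 145 CPM [99.8 to 204] of Skap1, an adaptor known for integrin activation in T cells, at a median depth of 1918 UMIs, against 251 CPM [188 to 328] in LSM lymphocytes. Itgav reached 153 CPM [89.4 to 246] in CD122+CD49a+ monocytes and 39.3 CPM [28.4 to 53.2] in LSM monocytes.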
